A study of Homo sapiens with 21 samples.

Results

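The comparison set HCT-116 cells given serum extracellular vesicles (EVs) of patients with HCC (in common usage, hepatocellular carcinoma) against the same cells given serum EVs of healthy people, both at 1.2 mg/mL, across all genes. HCT-116 is an established human colorectal carcinoma line with an epithelial-like shape, and EVs are membrane-bound particles that cells shed into blood and other fluids. Each source had 3 libraries, 6 of the 21 libraries of the series, and 3 libraries of cells grown without EVs served as the blank. The HCC+ and HCC- EVs were also given at 0.048 and 0.24 mg/mL, in 12 further libraries. Every culture, the blank included, was grown in medium whose serum had been depleted of exosomes. The labels do not state how many people gave serum, how long the cells were exposed, or whether replicate libraries began as separate cultures. The p-values therefore measure the spread between these libraries, which may be technical. All groups are a single cell line, which is of colon and not of liver.

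Poly(A) RNA was counted as reads per gene on GRCh38. Of 65065 genes, 19556 had enough counts to be tested. The HCC+ libraries held 44103480, 50903770 and 54737994 counts, the HCC- libraries 54948399, 44037433 and 52451876 counts, and the blank libraries 31219343, 42958433 and 41044709 counts. Expression is in CPM, with library sizes adjusted by TMM factors. Differences are log2 fold changes of HCC+ over HCC- ± the standard error of edgeR's quasi-likelihood test, fitted on all 21 libraries. A gene is called where the Benjamini-Hochberg adjusted p over all tested genes was under 0.05.

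The cells carried epithelial transcripts in both groups. KRT8, an epithelial keratin, had 2376, 2152 and 2263 CPM in HCC+ cells, against 1771, 1963 and 1891 CPM in HCC- cells. EPCAM, a surface protein of epithelia, had 263, 288 and 256 CPM in HCC+ cells, against 266, 213 and 249 CPM in HCC- cells. KRT19 and CDX2, a transcription factor of intestinal cells, were also present, at 20.2 ± 0.499 CPM for CDX2 with HCC+ EVs and 22.8 ± 0.538 CPM with HCC- EVs (SD, n = 3 each). VIL1, an actin-binding protein of the intestinal brush border, was close to 0 in every library, at no more than 0.343 CPM.

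Some background helps to place the genes. Before a cell copies its DNA, the origin recognition proteins, CDC6 and CDT1 load the MCM helicase onto origins, and CDC45 and the GINS complex then turn it on. E2F transcription factors, held back by the RB protein until cyclins rise, drive many of these genes and the enzymes that make deoxynucleotides. Cholesterol synthesis is driven by SREBP2, the product of SREBF2, when membrane sterol is low. Cells in concentrated medium take up or make osmolytes such as inositol, betaine, taurine and sorbitol. The integrated stress response is run by ATF4 when amino acids or protein folding fall short.

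The promoters of GINS2 and CDC6 hold a match to an E2F motif, TTTCCCGC or TTTGGCGC on either strand, and that of SREBF2 holds a match to a sterol element, TCACCCCAC. They are printed here because these genes belong to lists whose members were nearly all higher in HCC+ cells and because their windows hold the motif. The match was thus a condition of the choice. The E2F motif was in 14 of 30 windows of the replication list and the sterol element in 1 of 18 of the cholesterol list. Each window runs from 250 bases before to 50 bases after the start given by RefSeq on GRCh38.p14, 5′ to 3′ on the gene's strand with the match in capitals. The GINS2 window is chr16:85688905-85689204 on the minus strand, the CDC6 window chr17:40287629-40287928 on the plus strand and the SREBF2 window chr22:41832855-41833154 on the plus strand. The count table draws GINS2 with a start further upstream than RefSeq does.
GINS2: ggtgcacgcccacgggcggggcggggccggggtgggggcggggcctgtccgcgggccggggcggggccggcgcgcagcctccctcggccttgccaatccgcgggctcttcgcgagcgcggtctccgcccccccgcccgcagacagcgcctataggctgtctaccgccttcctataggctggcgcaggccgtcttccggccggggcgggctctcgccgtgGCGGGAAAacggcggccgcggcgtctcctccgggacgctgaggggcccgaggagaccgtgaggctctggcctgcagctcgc
CDC6: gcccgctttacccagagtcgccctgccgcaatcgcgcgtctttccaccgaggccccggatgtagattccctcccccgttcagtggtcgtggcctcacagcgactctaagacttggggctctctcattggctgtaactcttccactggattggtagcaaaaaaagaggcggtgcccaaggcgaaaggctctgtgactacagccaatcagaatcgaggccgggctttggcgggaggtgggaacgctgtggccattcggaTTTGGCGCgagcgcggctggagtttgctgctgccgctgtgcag
SREBF2: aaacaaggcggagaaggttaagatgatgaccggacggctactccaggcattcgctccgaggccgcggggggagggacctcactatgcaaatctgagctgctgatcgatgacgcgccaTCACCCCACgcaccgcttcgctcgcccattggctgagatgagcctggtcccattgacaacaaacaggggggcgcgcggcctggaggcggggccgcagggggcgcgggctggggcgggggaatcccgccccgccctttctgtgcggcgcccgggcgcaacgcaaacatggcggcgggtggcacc
A match is a run of letters and does not show that a factor was bound.

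Of the 19556 tested genes, 4411 (22.6%) were higher and 2490 (12.7%) lower in HCC+ than in HCC- cells, so that 35.3% were called in either direction. Most differences were small. The median log2 fold change was 0.41 among genes called higher and -0.54 among those called lower, and 239 genes were higher and 593 lower by at least 2-fold. The genes called higher were the more abundant ones, with a median mean level of 5.63 log2 CPM, against 3.12 log2 CPM for the genes called lower and 3.16 log2 CPM for all tested genes. In 9122 genes (46.6%) the 3 HCC+ libraries did not overlap the 3 HCC- libraries, and 4123 of the genes called higher and 2362 of those called lower were among them.

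The split between higher and lower calls depended on scaling. TMM factors were 1.03 to 1.06 in the HCC+ libraries, 1.16 to 1.17 in the HCC- libraries and 0.936 to 0.982 in all others. Scaled to total counts alone, 2342 genes were higher and 4572 lower, and the median of all genes moved by -0.16. With trends in GC content and length removed, 3611 were higher and 4193 lower, with a shift of -0.10. Counts or medians under total counts are given beside many of the lists below. Every count of list members is to be read beside 22.6% higher and 12.7% lower over all tested genes. Over the 14344 protein-coding genes these shares were 29.7% and 12.6%, with a median of 0.08. RNA per cell was not measured, and in bulk RNA fewer cells in a state and less RNA per cell cannot be told apart.

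Genes named by size were called genes of at least 1 log2 CPM whose HCC+ and HCC- libraries did not overlap. The largest increase among them was in RIBC2 (chr22:45413691-45432496 on GRCh38), which encodes a ciliary microtubule protein. RIBC2 had 2.9, 2.22 and 3.8 CPM in HCC+ cells, against 0.454, 0.585 and 0.295 CPM in HCC- cells. The difference was 2.75 ± 0.24 (adjusted p = 2.66e-10), and the lack of overlap was a condition of the choice. Most of the next genes by size serve DNA replication or the cell cycle. EXO1, a DNA exonuclease of mismatch repair and recombination, differed by 1.88 ± 0.10, and RFC5, a subunit of the clamp loader, by 1.69 ± 0.10. ASF1B, a histone chaperone, differed by 1.60 ± 0.08, the cyclin gene CCNE2, of whose exon bases 37.0% overlap INTS8 on the opposite strand, by 1.60 ± 0.13 and ESCO2, which acetylates cohesin during replication, by 1.59 ± 0.13. GINS2 and RRM2 were also among the 10 highest, as was ZNF367, a zinc finger gene, at 1.55 ± 0.11.

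At the other end stood MIR23AHG (chr19:13823880-13842928), the host transcript of 3 microRNA genes. MIR23AHG had 5.35, 4.2 and 4.03 CPM in HCC+ cells, against 14.5, 17.9 and 16.3 CPM in HCC- cells, and the difference was -1.85 ± 0.14 (adjusted p = 1.08e-11). The HCC+ libraries sat close to the blank, at 3.62, 3.74 and 3.99 CPM. Of its exon bases 12% overlap ZSWIM4 on the opposite strand. DNAH10, an axonemal dynein heavy chain, differed by -1.76 ± 0.17, CMYA5, a muscle protein, by -1.45 ± 0.23 and CUBN, an endocytic receptor, by -1.45 ± 0.23. TSC22D3, a glucocorticoid-induced leucine zipper gene, differed by -1.42 ± 0.12, CCN1, a secreted matrix protein, by -1.41 ± 0.13 and the noncoding CAPN10-DT by -1.58 ± 0.21. FOSB, CHAC1 and AKR1B1 also belong to the 10 lowest and are described with their lists.

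**Figure D1:**
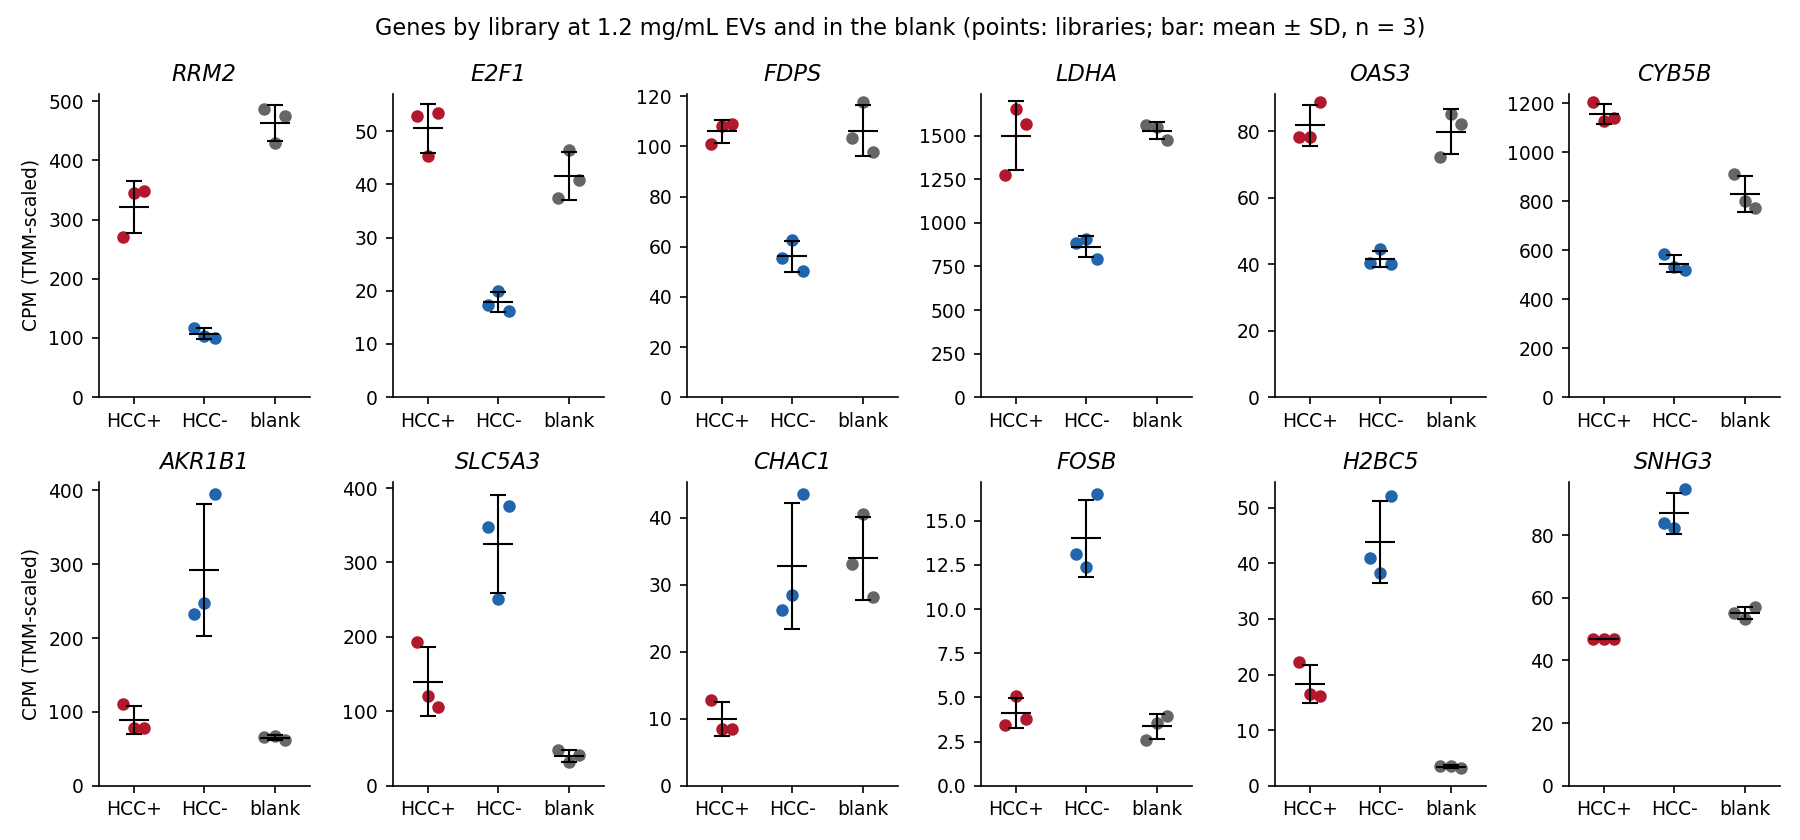
CPM (vertical axes, from 0) of 12 genes in the 3 libraries each of HCC+ cells and HCC- cells at 1.2 mg/mL and of the blank, with points for libraries and bars for the mean ± SD. In the upper row the HCC+ libraries lie above the HCC- libraries and in the lower row below them, without overlap in any of the 12 genes.

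Genes that copy DNA were higher in HCC+ than in HCC- cells. All 34 tested genes of replication licensing and the fork were called higher, against 22.6% of all genes, with a median log2 fold change of 0.99 and a range of 0.53 to 1.69. Over all tested genes the median was 0.01. GINS2 (chr16:85676198-85690073), a subunit of the GINS complex, had 61.2, 58.9 and 65.1 CPM in HCC+ cells, against 19.3, 21.9 and 20.2 CPM in HCC- cells. The difference was 1.59 ± 0.07 (adjusted p = 5.05e-16), with no overlap. MCM10, which helps to open the origin, had 65.6, 75.2 and 78.9 CPM in HCC+ cells, against 24.8, 26.3 and 24 CPM in HCC- cells, and the difference was 1.55 ± 0.07. CDC45, the helicase cofactor, differed by 1.46 ± 0.08, the licensing factor CDC6 by 1.36 ± 0.08 and MCM4, a helicase subunit, by 1.18 ± 0.06. The smallest difference in the list was that of another helicase subunit, MCM7, at 0.53.

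By the list medians, both sources stood below the blank. The median of the 34 genes was -0.41 for HCC+ cells relative to the blank and -1.39 for HCC- cells relative to the blank, a pair of values that share the blank libraries. GINS2 stood at 89.7, 81.9 and 81 CPM in the blank, -0.45 ± 0.07 for HCC+ over blank and -2.04 ± 0.07 for HCC- over blank. MCM10 stood at 109, 99.6 and 105 CPM in the blank. In GINS2 and MCM10 the HCC- libraries were thus lowest, the HCC+ libraries in between and the blank highest, with no overlap.

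All 13 tested genes of deoxynucleotide supply were called higher (10 under total counts), with a median of 0.58, and the medians were -0.39 for HCC+ over blank and -1.04 for HCC- over blank. RRM2 (chr2:10120698-10211725), the small subunit of ribonucleotide reductase, had 270.2, 345 and 349 CPM in HCC+ cells, against 117, 103 and 100.3 CPM in HCC- cells, and 486, 429.8 and 475 CPM in the blank. The difference between sources was 1.59 ± 0.08 (adjusted p = 9.79e-16). The large subunit RRM1 differed by 0.99 ± 0.07, DUT, which removes dUTP, by 1.33 ± 0.08 and thymidine kinase TK1 by 1.10 ± 0.08. RRM1 stood at -0.71 ± 0.07 for HCC+ over blank and -1.69 ± 0.07 for HCC- over blank.

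In the E2F and RB family, 13 of 18 tested genes were higher and 0 lower, with a median of 0.55. E2F1 differed from the replication genes in its place relative to the blank. E2F1 had 52.9, 45.3 and 53.5 CPM in HCC+ cells, against 17.4, 19.9 and 16.2 CPM in HCC- cells, and 37.4, 46.4 and 40.9 CPM in the blank. The difference between sources was 1.51 ± 0.09 (adjusted p = 6.59e-14), and E2F1 was higher than the blank with HCC+ EVs (0.28 ± 0.09) and lower than the blank with HCC- EVs (-1.23 ± 0.09). The first of these calls was lost without any 1 of 4 of the 6 libraries (log2 0.21 to 0.27). E2F2, a further activator, differed by 1.29 ± 0.08, E2F8, a repressor of the family, by 1.43 ± 0.09 and MYBL2, a transcription factor that E2F controls, by 1.40 ± 0.08.

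Genes of recombination and crosslink repair were higher in 17 of 18 and lower in 0, with a median of 0.97. MSH6, a mismatch recognition protein, had 164, 168 and 166 CPM in HCC+ cells, against 85.3, 89.1 and 70.7 CPM in HCC- cells, and the difference was 1.02 ± 0.07 (adjusted p = 3.02e-13). Of its exon bases 16.2% overlap FBXO11 on the opposite strand. FANCI, of the Fanconi pathway, differed by 1.02 ± 0.07. In the mitosis list 19 of 26 genes were higher and 1 lower, with a median of 0.48. CDK1, the kinase that starts mitosis, had 92.9, 135 and 126 CPM in HCC+ cells, against 55.8, 51.3 and 49.7 CPM in HCC- cells, a difference of 1.18 ± 0.10. MAD2L1 of the spindle checkpoint differed by 0.99 ± 0.09, the kinase AURKB by 0.72 ± 0.07 and cyclin CCNA2 by 0.78 ± 0.09. The gene called lower was KIF20A, a kinesin of cytokinesis, at -0.27 ± 0.08 (adjusted p = 0.0101), which became -0.13 without HCC+ replicate 1 (adjusted p = 0.158 in edgeR).

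The lists of DNA methylation and Polycomb genes and of one-carbon metabolism were mostly higher. In the first, 8 of 13 were higher and 2 lower, with a median of 0.40. UHRF1, which guides the maintenance methyltransferase, differed by 1.22 ± 0.07, the chromatin remodeler HELLS by 1.13 ± 0.08 and the methyltransferase DNMT1 by 0.56 ± 0.06, while TET3, which oxidises methylcytosine, differed by -0.42 ± 0.09. Of 12 serine and one-carbon genes 8 were higher and 1 lower, with a median of 0.34. SHMT1, which moves a carbon from serine to folate, differed by 0.76 ± 0.06 and MTHFD1 by 0.82 ± 0.06. Of 15 genes of purine and pyrimidine synthesis 11 were higher and 0 lower, among them PRPS2 at 1.08 ± 0.07 and PAICS at 0.73 ± 0.07. Total-count scaling kept the medians of these 3 lists above 0, at 0.23, 0.18 and 0.21.

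Cholesterol genes were higher in 23 of 25 and lower in 0, with a median of 0.55, or 0.38 with 17 higher and 1 lower under total counts. Relative to the blank, the list median was 0.14 for HCC+ over blank and -0.44 for HCC- over blank. FDPS (chr1:155308748-155320666), which makes farnesyl diphosphate, had 101, 108 and 109 CPM in HCC+ cells, against 55.6, 62.6 and 50.2 CPM in HCC- cells, and 103, 118 and 97.8 CPM in the blank. The difference between sources was 0.92 ± 0.07 (adjusted p = 4.17e-11), and HCC+ libraries overlapped the blank. Of its exon bases 18.6% overlap RUSC1-AS1 on the opposite strand. ACAT2, which joins acetyl-CoA at the start of the pathway, had 90.9, 93.4 and 93.3 CPM in HCC+ cells, against 47.7, 54 and 44.4 CPM in HCC- cells, and 79, 76.7 and 70.8 CPM in the blank, so that HCC+ was highest, the blank in between and HCC- lowest. ACAT2 shares 397 exon bases on the opposite strand with TCP1, and the counting is not stated to use strand. SREBF2 differed by 0.33 ± 0.07, which total counts left uncalled at 0.16.

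Of 16 genes that build fatty acids 12 were higher and 0 lower, with a median of 0.39, or 0.23 with 9 higher and 1 lower under total counts. SCD, which puts a double bond into stearoyl-CoA, had 3388, 3363 and 3302 CPM in HCC+ cells, against 2442, 2336 and 2431 CPM in HCC- cells, a difference of 0.48 ± 0.05 (adjusted p = 4.01e-09). ACLY, which makes acetyl-CoA from citrate, differed by 0.62 ± 0.06, ACSS2, which makes it from acetate, by 0.71 ± 0.09 and the elongase ELOVL6 by 0.55 ± 0.07. Of 20 genes in a list of fatty acid oxidation and PPAR targets 16 were higher and 0 lower, also with a median of 0.39. Under total counts 12 were higher and 0 lower, with a median of 0.23. The list includes PLIN2, ANGPTL4 and PDK4, which are not oxidation enzymes. ETFB, which passes on electrons from fatty acid oxidation, differed by 0.98 ± 0.10 and the dehydrogenase ACADM by 0.74 ± 0.08. Of 8 genes in the LXR list 1 was higher and 2 lower (1 and 4 under total counts). The list holds targets of this sterol sensor and also NR1H2 and NR1H3, which encode the sensor. NR1H2 stood at -0.29 and the target ABCA1 at -0.67, in a list range of -1.04 to 0.48. LPCAT3, a phospholipid remodelling enzyme, differed by 0.48 ± 0.08, but 66.0% of its exon bases overlap EMG1 on the opposite strand. APOE, a lipid carrier, differed by -1.04 ± 0.27 at levels of 1.64 ± 0.0825 CPM in HCC+ and 3.39 ± 0.313 CPM in HCC- cells (SD, n = 3 each).

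Nuclear genes of oxidative phosphorylation were higher in 24 of 30 and lower in 1, with a median of 0.39, or 0.23 with 20 higher and 2 lower under total counts. UQCRC2, a core subunit of complex III, had 172, 194 and 189.5 CPM in HCC+ cells, against 121, 128 and 99.2 CPM in HCC- cells, a difference of 0.68 ± 0.07 (adjusted p = 2.25e-09). ATP5MC3, of the ring of ATP synthase, differed by 0.61 ± 0.06 and NDUFV1, of complex I, by 0.72 ± 0.08. The lower gene was NDUFV2 at -0.82 ± 0.30 (adjusted p = 0.0328), with no more than 1.35 CPM in these 9 libraries, and 4 of the 6 fits without a single library lost the call (log2 -0.72 to -0.82). The 13 mRNAs that mitochondria encode were higher in 6 and lower in 0, with a median of 0.20, or 0.04 under total counts. MT-CO2, of complex IV, differed by 0.41 ± 0.07. Of 19 genes in the TCA cycle list 17 were higher and 0 lower, with a median of 0.45. Under total counts 11 were higher and 1 lower, with a median of 0.28. The list includes PDHA1, PDHB, DLAT, PC and PCK2, which act beside the cycle itself. FH, which makes malate, had 76.3, 80.8 and 81.7 CPM in HCC+ cells, against 45.1, 44.4 and 42.5 CPM in HCC- cells, a difference of 0.86 ± 0.07, and 138, 121 and 128 CPM in the blank. IDH2 differed by 0.92 ± 0.08 and SUCLG1 by 0.78 ± 0.07.

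All 20 tested genes of mitochondrial import and chaperones were higher, with a median of 0.28, against 0.11 with 7 higher and 0 lower under total counts and 15 higher with only the libraries compared. HSPD1, the chaperonin of the matrix, differed by 0.67 ± 0.07 and TRAP1, of whose exon bases 29.5% overlap DNASE1 on the opposite strand, by 0.55 ± 0.07. Of 17 genes of the mitochondrial ribosome 15 were higher and 0 lower, with a median of 0.30, or 0.14 with 8 higher and 0 lower under total counts, and MRPL37 differed by 0.59 ± 0.06. Relative to the blank, the median of the import list was -0.42 with HCC+ EVs and -0.77 with HCC- EVs.

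Glycolysis and hypoxia genes had a median of 0.63, with 18 of 28 higher and 2 lower. LDHA (chr11:18394560-18408425), which makes lactate, had 1277, 1653 and 1570 CPM in HCC+ cells, against 882, 909.7 and 794 CPM in HCC- cells, and 1561, 1552 and 1474 CPM in the blank. The difference between sources was 0.80 ± 0.09 (adjusted p = 3.08e-08), while HCC+ cells and the blank overlapped. TPI1 differed by 0.64 ± 0.07, GAPDH by 0.65 ± 0.08 and PGAM1 by 0.62 ± 0.07. VEGFA, an angiogenic factor that hypoxia raises, went the other way at -0.73 ± 0.13. VEGFA had 62.3, 56.1 and 61.5 CPM in HCC+ cells, against 84.8, 85.1 and 129 CPM in HCC- cells. The second gene called lower was SLC2A3, a glucose transporter, at -0.70 ± 0.19, and its adjusted p was 0.0554 without HCC- replicate 3. MIR210HG, the host transcript of a microRNA that hypoxia induces, was higher. MIR210HG had 2.21, 3.71 and 5.04 CPM in HCC+ cells, against 1.5, 1.4 and 1.08 CPM in HCC- cells, a difference of 1.47 ± 0.28 (adjusted p = 0.000202).

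The mature microRNAs of both host transcripts are shown because these hosts are among the genes whose difference between sources changed most with dose. Sequences are from RefSeq on GRCh38.p14, 5′ to 3′, with the seed (bases 2 to 8) in capitals. MIR210HG on chromosome 11 holds miR-210, and MIR23AHG on chromosome 19 holds miR-23a, miR-27a and miR-24-2, all on the minus strand.
miR-24-3p: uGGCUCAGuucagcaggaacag
miR-24-2-5p: uGCCUACUgagcugaaacacag
miR-27a-3p: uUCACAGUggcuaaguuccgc
miR-27a-5p: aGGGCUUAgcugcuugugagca
miR-23a-3p: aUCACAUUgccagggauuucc
miR-23a-5p: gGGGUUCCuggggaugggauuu
miR-210-3p: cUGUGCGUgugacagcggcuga
miR-210-5p: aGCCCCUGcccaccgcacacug
No 2 of these 8 share a seed. Counts of a polyadenylated host do not measure mature microRNAs, which a poly(A) library does not capture.

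Of 28 ribosome biogenesis genes 19 were higher and 0 lower, with a median of 0.24, or 0.07 with 9 higher and 2 lower under total counts. Of 28 cytosolic ribosomal protein genes 11 were higher and 0 lower, with a median of 0.11. That median was near the 0.08 of all protein-coding genes, of which 29.7% were called higher. Under total counts it became -0.05, with 2 higher and 3 lower. Of 20 aminoacyl-tRNA synthetases 14 were higher and 1 lower, with a median of 0.28, or 0.12 with 9 higher and 4 lower under total counts. IARS1, the isoleucine enzyme, had 397, 448 and 435 CPM in HCC+ cells, against 263, 277 and 230.2 CPM in HCC- cells, and 791, 724 and 772 CPM in the blank. IARS1 differed by 0.73 ± 0.06 between sources and FARSB, of the phenylalanine enzyme, by 0.89 ± 0.08. The lower synthetase was CARS1 at -0.16 ± 0.06 (adjusted p = 0.0353), a call lost without any of 4 of the 6 libraries. Polyamine genes were higher in 5 of 7 and lower in 0. SAT1, which acetylates polyamines for export, differed by 0.64 ± 0.07 and stood above the blank in HCC+ cells (0.68 ± 0.07).

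Heat shock and cytosolic chaperone genes were higher in 12 of 15 and lower in 0 (median 0.27, or 0.11 with 6 higher and 2 lower under total counts), and all 8 subunits of the chaperonin TRiC were higher (median 0.28, or 0.12 with 3 higher and 0 lower under total counts). HSP90AA1 differed by 0.56 ± 0.07 and CCT7, a TRiC subunit, by 0.38 ± 0.05. Of 24 proteasome genes 20 were higher and 0 lower, with a median of 0.31, or 0.14 with 9 higher and 0 lower under total counts, and PSMC3 differed by 0.57 ± 0.06. Of 20 genes of ER folding and the unfolded protein response 9 were higher and 3 lower, with a median of 0.12, or -0.04 with 6 higher and 5 lower under total counts. The disulfide isomerase PDIA4 differed by 0.59 ± 0.05, and ERN1, a sensor of unfolded protein, by -0.42 ± 0.09.

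**Figure D2:**
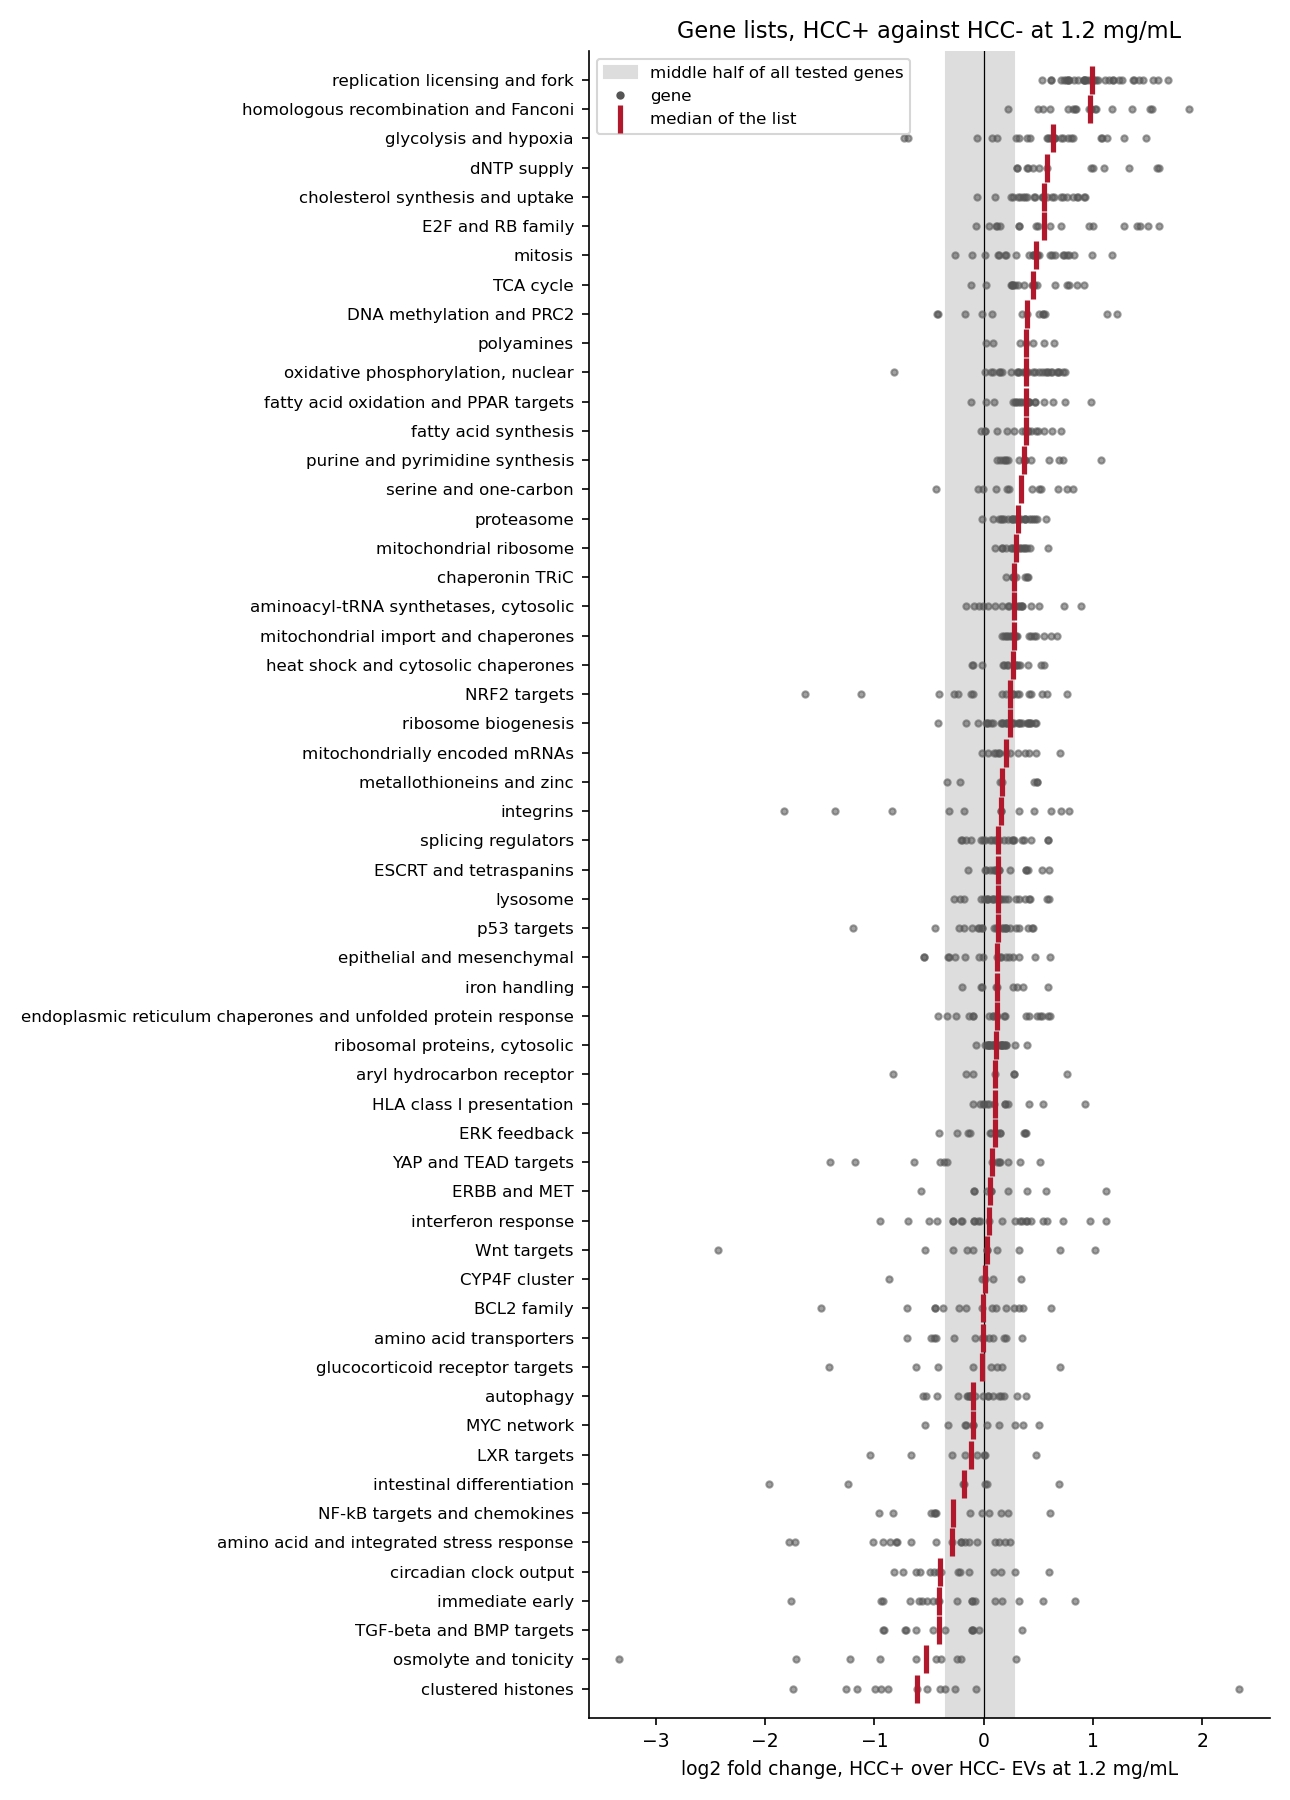
Log2 fold change of HCC+ over HCC- at 1.2 mg/mL (horizontal axis) for each tested gene (grey points) of the gene lists (vertical axis), with the list median as a red bar and a grey band from the lower to the upper quartile of all tested genes. The replication list has the highest median at 0.99 and the clustered histones the lowest at -0.61.

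Osmolyte and tonicity genes were lower in HCC+ than in HCC- cells, with 7 of 10 lower and 1 higher, against 12.7% of all genes called lower, and a median of -0.53. AKR1B1 (chr7:134442356-134459284), which makes sorbitol, had 110.2, 77.5 and 77.9 CPM in HCC+ cells, against 233, 248 and 395 CPM in HCC- cells, and 66.6, 67.6 and 61.4 CPM in the blank. The difference was -1.72 ± 0.16 (adjusted p = 1.16e-07). SLC5A3 (chr21:34073578-34106260), an inositol transporter, had 192, 120.4 and 106 CPM in HCC+ cells, against 347, 251 and 376 CPM in HCC- cells, and 47.8, 31.5 and 40.9 CPM in the blank, a difference between sources of -1.22 ± 0.20. SLC5A3 shares exon bases with MRPS6 on the same strand, so reads can belong to either. SLC6A12 (chr12:190077-214570), a betaine transporter, had 2.98, 0.573 and 0.655 CPM in HCC+ cells, against 8.62, 10.1 and 23 CPM in HCC- cells, with 0 to 0.172 CPM in the blank. SLC6A12 differed by -3.33 ± 0.54 and the taurine transporter SLC6A6 by -0.39 ± 0.09.

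Both sources were above the blank in these genes, by a median of 1.06 for HCC+ and 1.95 for HCC-. AKR1B1 stood at 0.44 ± 0.15 for HCC+ over blank, or 0.26 without HCC+ replicate 1 (adjusted p = 0.181 in edgeR), and 2.16 ± 0.16 for HCC- over blank. The libraries of a source were not alike. HCC- replicate 3 was the highest of its group and HCC+ replicate 1 the highest of its group in AKR1B1, SLC5A3 and SLC6A12.

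Immediate early genes, transcription factors that respond to stimuli within minutes to hours, were lower in 8 of 19 and higher in 3, with a median of -0.41. FOSB (chr19:45467995-45475179) had 3.46, 5.1 and 3.79 CPM in HCC+ cells, against 13.1, 12.4 and 16.5 CPM in HCC- cells, a difference of -1.77 ± 0.15 (adjusted p = 1.48e-10). JUN had 23.2, 19.6 and 20.1 CPM in HCC+ cells, against 35.4, 39.7 and 45.4 CPM in HCC- cells, a difference of -0.94 ± 0.11. FOSB stood at 0.28 ± 0.16 for HCC+ over blank and 2.05 ± 0.16 for HCC- over blank, and JUN at 0.12 ± 0.12 for HCC+ and 1.05 ± 0.11 for HCC-, so that the HCC+ cells were nearer to the blank. IER2 differed by -0.67 ± 0.10. FOSL1, a FOS relative, was higher at 0.55 ± 0.11. The largest positive value of the list was that of EGR1 at 0.83, while EGR2 and EGR3 stood at -0.47 and -0.41. The list thus did not move as a unit.

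Of the integrated stress and amino acid response, 7 of 19 genes were lower and 0 higher, with a median of -0.29, or -0.45 with 0 higher and 11 lower under total counts. CHAC1 (chr15:40952962-40956512), which degrades glutathione, had 12.8, 8.5 and 8.42 CPM in HCC+ cells, against 26.2, 28.5 and 43.5 CPM in HCC- cells, and 33.1, 40.5 and 28.2 CPM in the blank. The difference was -1.73 ± 0.19 (adjusted p = 6.96e-07), and here the HCC- libraries overlapped the blank while the HCC+ libraries lay below both. ATF4, the factor that drives the response, showed all 3 groups apart. ATF4 had 420.3, 374 and 392 CPM in HCC+ cells, against 486, 516 and 599.7 CPM in HCC- cells, and 684, 742 and 657 CPM in the blank, a difference between sources of -0.43 ± 0.07. ATF3, which ATF4 induces, differed by -0.93 ± 0.08 and PPP1R15A, which helps to end the response, by -0.66 ± 0.08. Amino acid transporters were mixed, with 2 of 13 higher and 4 lower (0 and 7 under total counts). SLC7A5 differed by -0.45 ± 0.07 and its partner SLC3A2 by -0.48 ± 0.07, and both were below the blank with either source (-0.99 ± 0.07 with HCC+ and -0.54 ± 0.07 with HCC- for SLC7A5).

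TGF-beta and BMP targets were lower in 7 of 12 and higher in 1, with a median of -0.41. SKIL, a brake on SMAD signalling, had 13.5, 13.9 and 13.3 CPM in HCC+ cells, against 29.7, 19.8 and 27 CPM in HCC- cells, a difference of -0.91 ± 0.16 (adjusted p = 2.67e-05). SMAD7, an inhibitor of the receptors, differed by -0.72 ± 0.13, and ID2, the gene called higher, by 0.35 ± 0.06. Of 15 circadian output genes 6 were lower and 1 higher, with a median of -0.40. NR1D1, a nuclear receptor of the clock, differed by -0.74 ± 0.11, PER1 by -0.42 ± 0.08 and PER2 by -0.45 ± 0.10. NR1D1 was above the blank with HCC- EVs (0.98 ± 0.11), and PER2 was below it with HCC+ EVs (-0.75 ± 0.10).

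Clustered histone genes were lower in 7 of 13, with a median of -0.61. H2BC5 (chr6:26158146-26171349), a histone H2B gene, had 22.2, 16.5 and 16.1 CPM in HCC+ cells, against 40.9, 38.3 and 52.2 CPM in HCC- cells, and 3.45, 3.62 and 3.22 CPM in the blank. The difference was -1.26 ± 0.14 (adjusted p = 3.28e-08). The linker histone gene H1-2 differed by -1.16 ± 0.12 and H2BC21 by -1.74 ± 0.21. The list stood above the blank by a median of 1.47 with HCC+ EVs and 2.18 with HCC- EVs. H4C3 was called higher at 2.33 ± 0.85, with less than 1 CPM in each library and a call that 4 of the 6 fits without a single library lost (log2 1.35 to 2.70). Most transcripts of these genes end without a poly(A) tail, so a poly(A) library sees a part of them.

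SNHG and zinc finger genes were often called lower, while the broad noncoding types were mainly short of higher calls. These families were formed by symbol or gene type after values were seen. Of 24 tested SNHG genes, hosts of small nucleolar RNAs, 12 were lower and 0 higher, with a median of -0.36. SNHG3 (chr1:28505980-28510892) had 46.8, 46.8 and 46.9 CPM in HCC+ cells, against 84, 82.2 and 94.6 CPM in HCC- cells, and 55.1, 53.2 and 57.2 CPM in the blank, a difference of -0.89 ± 0.07. Of 401 ZNF genes 167 (41.6%) were lower and 16 higher, with a median of -0.26. Of 1231 long intergenic RNAs 15.4% were lower and 3.49% higher, against 12.7% and 22.6% of all tested genes. Of 1569 antisense RNAs 12.3% were lower and 2.1% higher, and of 710 processed pseudogenes 7.61% and 2.39%. Their lower calls were thus near or under the share over all genes. Of 14344 protein-coding genes 12.6% were lower and 29.7% higher. NEAT1, a nuclear RNA that builds paraspeckles, was also lower. NEAT1 had 147, 134 and 129 CPM in HCC+ cells, against 233, 234 and 223 CPM in HCC- cells, and 69, 63.6 and 78 CPM in the blank, a difference of -0.75 ± 0.09. It was the called gene among 3 tested genes of a short list used as a check on RNA quality, and it was chosen after its values were seen.

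Relative to the blank, 33% of tested genes were called in HCC+ cells and 53.3% in HCC- cells, and some genes were called on opposite sides of it. CYB5B (chr16:69424525-69466266), a cytochrome b5 of the outer mitochondrial membrane, was the most abundant of those named. CYB5B had 1206, 1128 and 1139 CPM in HCC+ cells, against 585, 531 and 519.9 CPM in HCC- cells, and 912, 800.3 and 775 CPM in the blank. Its difference between sources was 1.09 ± 0.07 (adjusted p = 2.01e-13), with 0.48 ± 0.07 for HCC+ over blank and -0.60 ± 0.07 for HCC- over blank. TNS4, a focal adhesion protein, had 92.4, 86.4 and 96.2 CPM in HCC+ cells, against 40.2, 45.6 and 40.1 CPM in HCC- cells, and 60.1, 72.1 and 60.9 CPM in the blank. TNS4 stood at 0.51 ± 0.07 for HCC+ over blank and -0.62 ± 0.08 for HCC- over blank. In the other direction, SNHG3 stood at -0.24 ± 0.07 with HCC+ EVs and 0.66 ± 0.07 with HCC- EVs, and TSPYL4 at -0.36 ± 0.10 with HCC+ EVs and 0.43 ± 0.10 with HCC- EVs. Under total counts the values for HCC+ over blank were -0.12 for SNHG3 and -0.24 for TSPYL4 and were not called.

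Several lists were mixed. Their counts stand beside 22.6% of all tested genes called higher and 12.7% called lower. For protein-coding genes the shares were 29.7% and 12.6%. Among genes of at least 1 log2 CPM, bins of GC content had 28.0% to 46.8% called higher and 4.04% to 20.2% lower. Higher counts in these lists can thus lie near the share of abundant genes. Of 23 p53 targets 7 were higher and 2 lower, which turned round under total counts to 1 higher and 7 lower. BTG2, an antiproliferative gene, differed by 0.40 ± 0.08, and TP53I3, an oxidoreductase, by -1.20 ± 0.12. TP53I3 had 23.4, 16 and 17.1 CPM in HCC+ cells, against 38.1, 41.6 and 50.2 CPM in HCC- cells. In the BCL2 family 3 of 15 were higher and 5 lower (2 and 8 under total counts), with BMF, which promotes cell death, at -1.49 ± 0.27 and BAD, another promoter of death, of whose exon bases 23.7% overlap GPR137 on the opposite strand, at 0.62 ± 0.11. Of 18 NRF2 targets 10 were higher and 3 lower, with a median of 0.24, against 0.07 with 7 higher and 7 lower under total counts and 8 higher and 7 lower with GC and length trends removed. NQO1, a quinone reductase, differed by 0.76 ± 0.06 and AKR1B10, an aldo-keto reductase, by -1.63 ± 0.29. NQO1 had 354, 375 and 371 CPM in HCC+ cells, against 216, 232 and 202 CPM in HCC- cells. AKR1B10 had 1.87, 1.7 and 1.03 CPM in HCC+ cells, against 4.2, 4.29 and 5.73 CPM in HCC- cells. Members of one list thus differed in opposite directions, both with no overlap.

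Of 25 interferon response genes 6 were higher and 1 lower, with a median of 0.05, against -0.11 with 5 higher and 6 lower under total counts. The higher calls were near the share over all tested genes, of which 22.6% were higher and 12.7% lower. The same shares, and those of protein-coding and abundant genes given above, apply to the other lists of this paragraph. OAS3, a sensor of double-stranded RNA, had 78.3, 78.2 and 88.9 CPM in HCC+ cells, against 40.3, 44.5 and 40.2 CPM in HCC- cells, and 72.2, 85.1 and 82.3 CPM in the blank, a difference of 0.97 ± 0.07. The lower gene was IRF7 at -0.95 ± 0.18. In HLA class I presentation 5 of 13 were higher and 0 lower (3 and 2 under total counts), with TAP2, a peptide transporter, at 0.93 ± 0.09. Of 12 integrin genes 5 were higher and 2 lower, with ITGB4, of hemidesmosomes, at 0.78 ± 0.12 and ITGB8 at -1.36 ± 0.22. Wnt targets (3 higher and 3 lower of 11), YAP and TEAD targets (3 and 6 of 13), ERK feedback genes (2 and 2 of 12) and autophagy genes (2 and 4 of 20) had calls in both directions. The medians of the p53, ER, HLA, integrin, Wnt, YAP, ERK and vesicle lists lay between 0.03 and 0.16 and turned to between -0.01 and -0.13 under total counts. Autophagy calls became 0 higher and 11 lower. Of the remaining lists, with higher calls given first in each pair, lysosome (9 and 1 of 24), splicing (10 and 3 of 22), epithelial and mesenchymal (5 and 2 of 17), iron (4 and 1 of 9), metallothionein and zinc (3 and 1 of 7), ERBB and MET (3 and 0 of 10), MYC network (3 and 2 of 11), aryl hydrocarbon receptor (1 and 0 of 7) and intestinal genes (1 and 0 of 7) had more higher than lower calls, although the medians of the MYC and intestinal lists were -0.10 and -0.18. Under total counts these became 6 and 4, 5 and 4, 2 and 4, 3 and 1, 0 and 2, 3 and 0, 1 and 5, 1 and 2, and 0 and 4 in the same order. NF-kB (1 and 3 of 12), glucocorticoid receptor (1 and 3 of 8) and CYP4F genes (0 and 1 of 5) had more lower calls. In the vesicle list of ESCRT and tetraspanin genes 6 of 16 were higher and 0 lower (3 and 2 under total counts), and CD63, a tetraspanin often used as an EV marker, differed by 0.39 ± 0.06.

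Markers of blood and vessel cells were present at low levels. The summed level of 10 leukocyte markers was 4.71 to 6.19 CPM in HCC+, 7.88 to 10.8 CPM in HCC- and 1.67 to 2.23 CPM in blank libraries. Of the defining markers, S100A8, S100A9 and FCGR3A had 0 counts in these 9 libraries. CD14, of monocytes, was called lower at -1.46 ± 0.47 (adjusted p = 0.0153), a call lost without HCC+ replicate 2, HCC+ replicate 3 or HCC- replicate 3 (log2 -1.13 to -1.28), and the value was -2.21 without HCC+ replicate 1. The sum of 6 endothelial markers was 3.69 to 4.72 CPM in HCC+, 8.55 to 10.9 CPM in HCC- and 0.652 to 1.07 CPM in blank libraries. Of the 5 tested endothelial markers 2 were called lower, VWF and PECAM1, and 0 higher. TEK leaned lower (-1.26), but KDR (1.55) and CLDN5 (1.06) leaned higher, each without a call. VWF had 1.22, 1.26 and 1.52 CPM in HCC+ cells, against 2.62, 2.98 and 2.71 CPM in HCC- cells, a difference of -1.05 ± 0.30. PECAM1 differed by -1.30 ± 0.47 (adjusted p = 0.0345), and 4 of the 6 fits without a single library lost this call (log2 -1.07 to -1.36), as did DESeq2 (adjusted p = 0.302).

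Platelet markers summed to 21.3 to 22.9 CPM in HCC+, 15.5 to 19.1 CPM in HCC- and 26.0 to 30.0 CPM in blank libraries, of which NRGN made the larger share. NRGN differed by 0.63 ± 0.10, and PPBP and PF4 had 0 counts. Erythroid (0.402 to 0.963 CPM in HCC+ and 0.431 to 1.16 CPM in HCC- libraries) and hepatocyte markers (3.26 to 3.99 and 2.69 to 3.91 CPM in the same order) held 0 called genes, and the hepatocyte markers APOB and AFP had 0 counts. Fibroblast markers summed to 22.6 to 33.2 CPM in HCC+ and 33.9 to 40.8 CPM in HCC- libraries, also with 0 called. RNA carried by EVs and RNA made by the cells cannot be told apart in these counts, and the part of either in the lists above was not tested.

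At lower doses fewer genes were called. At 0.048 mg/mL 212 genes were higher (1.08%) and 481 lower (2.46%), 3.54% in all, but leaving out single libraries left 2 to 135 higher and 0 to 401 lower. At 0.24 mg/mL 0 of 19556 genes were called with edgeR (0%) and 0 with DESeq2, and 462 genes had an unadjusted p under 0.05. Over the 12263 genes of at least 1 log2 CPM, the interquartile range of the log2 difference was 0.287 at 0.048 mg/mL, 0.10 at 0.24 mg/mL and 0.437 at 1.2 mg/mL. Across 12263 genes of at least 1 log2 CPM, Pearson's r between the differences at 1.2 and 0.048 mg/mL was 0.01, and between those at 1.2 and 0.24 mg/mL -0.03, with genes not independent replicates. Of the 6901 genes called at 1.2 mg/mL 362 were also called at 0.048 mg/mL, 5.25% of the calls at 1.2 mg/mL and 52.2% of those at 0.048 mg/mL, and 105 of them had the same direction.

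The replication list had medians of -0.02 at 0.048 mg/mL and 0.00 at 0.24 mg/mL, against 0.99 at 1.2 mg/mL. At 0.048 mg/mL RRM2 averaged 444 ± 13.5 CPM with HCC+ and 447 ± 30.8 CPM with HCC- EVs (SD, n = 3 each). At 0.24 mg/mL RRM2 averaged 448 ± 17.2 CPM with HCC+ and 447 ± 26.8 CPM with HCC- EVs (SD, n = 3 each). At 1.2 mg/mL RRM2 averaged 321 ± 44.1 CPM with HCC+ and 107 ± 9.23 CPM with HCC- EVs (SD, n = 3 each). The clustered histones had medians of 0.44, -0.02 and -0.61 at 0.048, 0.24 and 1.2 mg/mL. Tested directly, the difference at 1.2 mg/mL departed from the mean difference at the lower doses in 5348 genes (27.3%), 3601 upward (18.4%) and 1747 downward (8.93%). The balance turned round under total counts, with 1797 upward and 3483 downward, and 3275 were downward with GC and length trends removed.

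**Figure D3:**
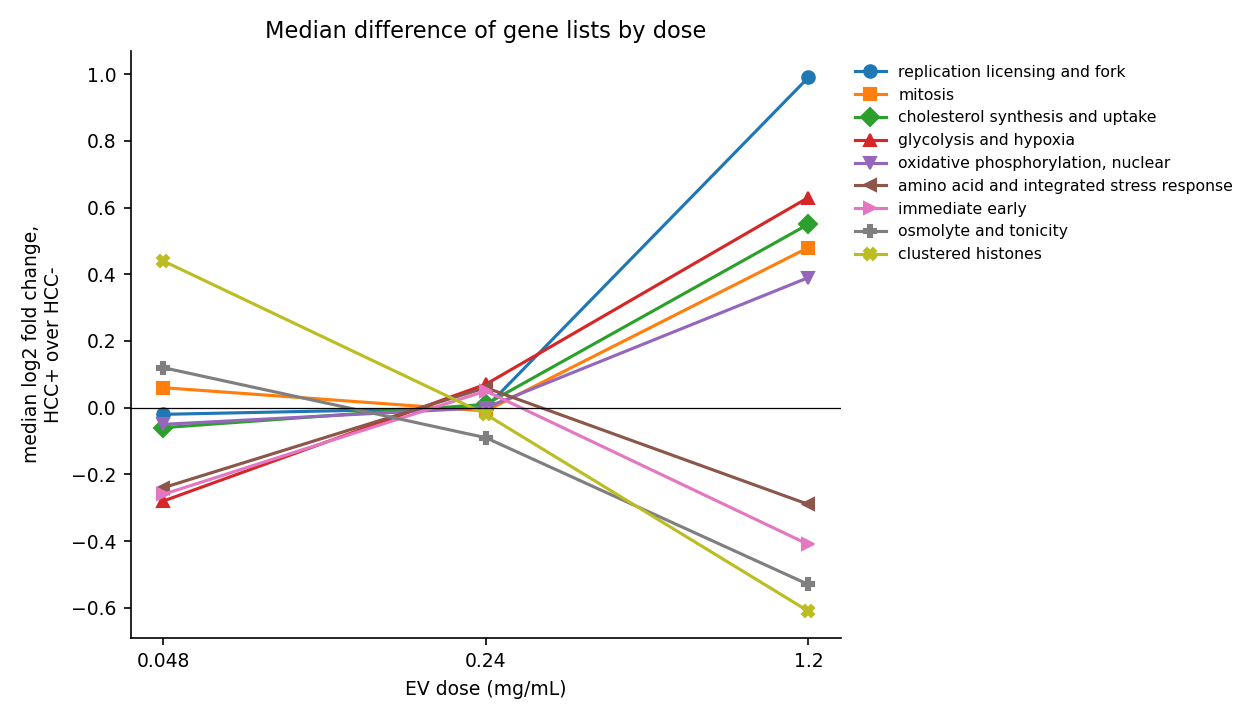
Median log2 fold change of HCC+ over HCC- (vertical axis) of 9 gene lists at EV doses of 0.048, 0.24 and 1.2 mg/mL (horizontal axis, doses evenly spaced). The medians lie close to 0 at 0.24 mg/mL and spread from -0.61 to 0.99 at 1.2 mg/mL.

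Promoter sequences were matched by symbol for 12607 tested genes, as windows of 300 bases. A match to the E2F motif was found in 3.52% of all windows, in 5.40% of those of genes called higher, in 15.7% of those higher by at least 2-fold and in 2.68% of those of genes called lower. In the replication list 14 of 30 windows held it (46.7%). The AP-1 motif TGACTCA, bound by FOS and JUN proteins, was found in 3.36% of all windows, in 2.23% of those of genes called higher, in 5.29% of those of genes called lower and in 7.09% of those lower by at least 2-fold. The CHR element TTTGAA of cell cycle promoters was found in 10.0% of all windows and in 13 of 20 of the mitosis list. CCAAT was found in 36.1% of all windows, in 85.0% of the mitosis list and in 83.3% of the cholesterol list. The sterol element was found in 0.42% of all windows and in 1 of 18 of the cholesterol list, that of SREBF2. CRE (TGACGTCA) was found in 3.06% of all windows, NRF2 (TGACNNNGC) in 15%, ATF4 (TGATGCAA) in 0.50% and the E-box TCACGTGA in 1.74%. The AP-1, CRE and NRF2 motifs begin alike, with TGAC, and can overlap. Both strands were searched, and these shares are descriptions with no test.

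**Figure D4:**
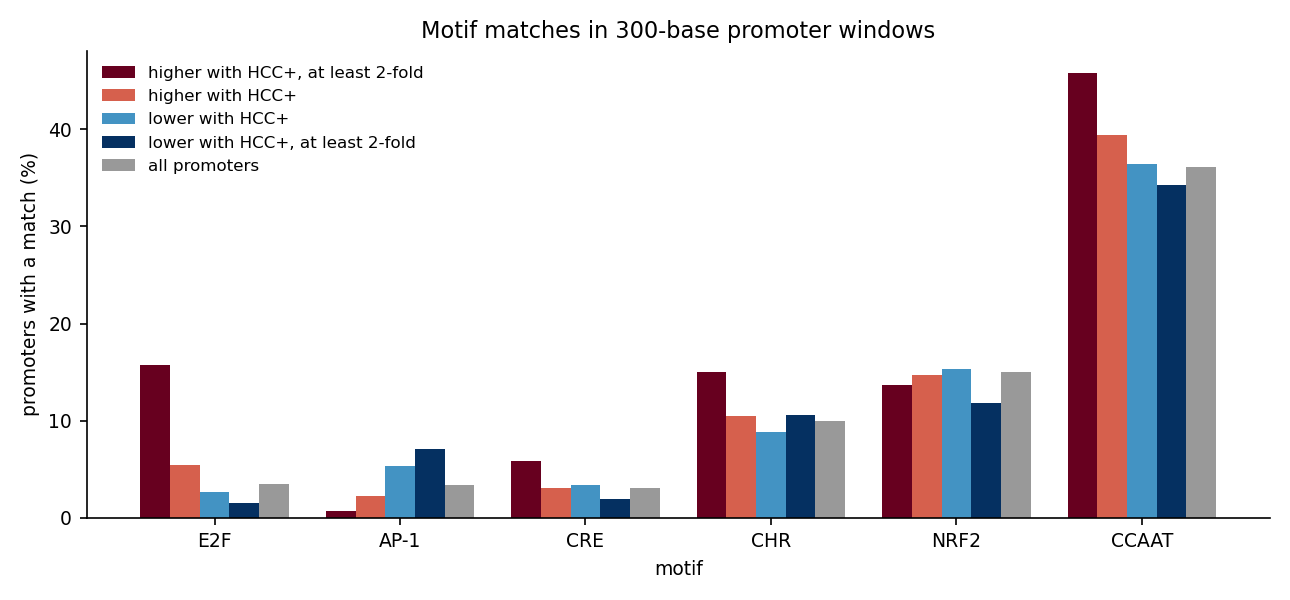
Share of promoter windows with at least 1 match (vertical axis, %) for 6 motifs (horizontal axis), among genes higher or lower in HCC+ than HCC- cells at 1.2 mg/mL, those that differ by at least 2-fold, and all 12607 windows. E2F matches are most frequent among genes at least 2-fold higher (15.7%) and AP-1 matches among genes at least 2-fold lower (7.09%).

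The difference between sources moved with GC content, taken over 12251 genes of at least 1 log2 CPM, among which higher calls were more frequent than over all tested genes. Genes of at most 38% GC had a median log2 fold change of 0.25, with 46.8% called higher and 4.04% lower, and genes of 54 to 58% GC a median of 0.03, with 28.7% higher and 17.8% lower. Above 62% GC the median was 0.10. Genes over 16000 exon bases had a median of 0.00, against 0.13 for those of 1000 to 2000 bases. With each library's trends removed, the bin medians lay between -0.01 and 0.04. All 34 replication genes stayed called higher then (median 0.89), as did 23 of 25 cholesterol genes (median 0.35), and 8 of 10 osmolyte genes were lower (median -0.70).

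**Figure D5:**
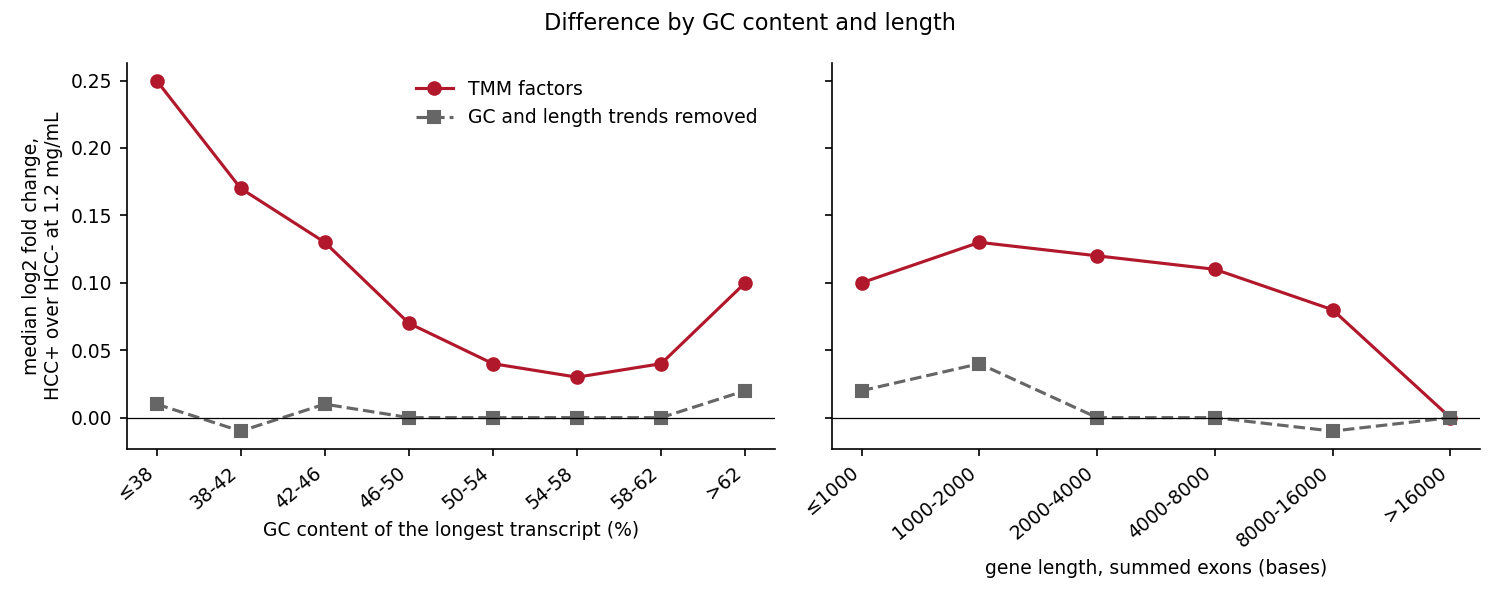
Median log2 fold change of HCC+ over HCC- at 1.2 mg/mL (vertical axis) of genes binned by GC content of the longest transcript and by summed exon length (horizontal axes), with TMM factors (red) and with GC and length trends removed (grey). The red line runs down from 0.25 in the lowest GC bin to 0.03 at 54 to 58% GC and the grey line stays within -0.01 and 0.04.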

How the data were processed

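The authors deposited a table of whole-number read counts per gene for 21 libraries of poly(A) RNA. Per the submitters' processing notes, cutadapt 3.4, HISAT2 2.2.1, featureCounts 2.0.1 and GRCh38 were used, in roles those notes do not give, and neither strand nor multi-mapping settings are stated there. Columns were matched to samples by the labels' descriptions. Of 65065 genes, 27406 had no count, and 19556, with 99.96% of the counts, were tested. The libraries held 31219343 to 64012757 counts.

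edgeR 4.0.16 in R 4.3.3 was run with filterByExpr, TMM factors and the quasi-likelihood test with robust dispersions on 7 group means (14 residual df), with Benjamini-Hochberg adjustment over all tested genes and a threshold of 0.05. Standard errors are the log2 fold change divided by the square root of F. DESeq2 1.42.0, RLE factors, total counts, no filter, a replicate block, only the libraries compared, GC content and length trends removed (spline, 5 df) and leaving out each library were the alternatives. In data simulated for the comparison at 1.2 mg/mL with 200 changed genes among 18847, 82.1% of 1.5-fold, 91.0% of 2-fold and 100% of 4-fold changes were recovered, with 16 false calls among 198. The changed genes excluded the least abundant, as many were raised as lowered, and all groups otherwise shared the same means. In the data 35.3% of genes were called and TMM factors differed between sources, so these rates need not hold there.

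Genes named were the 10 highest and 10 lowest, up to 4 called genes of a list with the smallest p and 2 of the other direction, called markers of other cell types, the genes that changed most with dose, the genes on opposite sides of the blank, the printed promoters, epithelial markers and, chosen after its values were seen, NEAT1. Not all of them are printed, and some are not reported here. The members and the 57 gene lists were chosen with earlier results of these data known. Lists are described by counts and medians with no test of their own.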

Additional observations from a re-analysis of the deposited data

Results flagged for a closer look

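The difference between HCC+ and HCC- cells at 1.2 mg/mL departed from the mean difference at 0.048 and 0.24 mg/mL, by edgeR's test of that departure, upward in 3601 genes and downward in 1747 genes. Among genes of at least 1 log2 CPM, RIBC2 departed most upward, by 2.75 on the log2 scale, followed by EXO1 (1.89), MIR210HG (1.71) and ASF1B (1.69). DNAH10 departed most downward (-1.96), followed by MIR23AHG (-1.81), CMYA5 (-1.73) and AKR1B1 (-1.69). All 8 genes kept their direction and their call in all 200 alternative values. Whether the 3 doses of a source came from the same serum is not given by the labels.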

How the results depend on the processing

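At 1.2 mg/mL, 4411 genes were higher and 2490 lower. Total counts gave 2342 higher and 4572 lower, and removing GC and length trends gave 4193 lower. Leaving out single libraries gave 3583 to 4211 higher and 1739 to 2284 lower. Departure from the lower doses was upward in 1797 and downward in 3483 genes under total counts, downward in 3275 with trends removed, and upward in 2876 to 3666 and downward in 1244 to 1718 without single libraries. At 0.24 mg/mL removing trends gave 1 higher gene, and leaving out single libraries gave 0 to 0 in either direction. At 0.048 mg/mL the 212 higher and 481 lower genes became 396 and 282 under total counts, 633 and 850 without a filter, 392 and 1042 with DESeq2, 1540 and 2101 with only the libraries compared, and 15 and 33 with trends removed. Without single libraries they were 2 to 135 and 0 to 401. The cause of these changes was not tested.

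Same-numbered libraries of HCC+ and HCC- at 1.2 mg/mL did not deviate together (r of -0.348, -0.385 and -0.097). Over all groups 20 of 63 same-numbered pairs correlated above 0.1. Among them were all 3 pairs of HCC- at 0.24 mg/mL with HCC- at 0.048 mg/mL and with the blank. HCC- at 1.2 mg/mL and the blank, which are compared above, had r of 0.395, 0.377 and -0.117. HCC+ at 1.2 mg/mL and the blank had r of -0.211, -0.451 and -0.049. The lower doses enter the test of departure. With the replicate block, 4489 genes were higher and 2466 lower at 1.2 mg/mL, and 387 higher at 0.048 mg/mL. Departure from the lower doses was then upward in 3678 genes and downward in 1745.

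Of 1663 alternative values of the difference at 1.2 mg/mL in 128 named genes, 1633 kept direction and call, 26 lost the call and 3 gained it. EPCAM's difference turned to -0.01 under total counts. Genes under about 1 CPM, such as H4C3, NDUFV2 and CD14, are limited by depth, and 3 libraries a group limit all tests.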
